A study of Mus musculus with 25 samples.

Results

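Mitochondrially encoded transcripts are the RNAs copied from the small circular genome inside mitochondria, and they were followed here in hepatocytes of mice on a diet that leads to non-alcoholic steatohepatitis (NASH), a liver disease of fat storage, inflammation and scarring. The members were all rows of the count table whose gene symbol starts with mt-, which gave 37 of 37085 symbols: 13 mRNAs, 2 ribosomal RNAs and 22 transfer RNAs. The groups were mice on the NASH diet for 1, 2, 3, 4, 5 and 6 weeks (4, 3, 4, 3, 3 and 3 libraries) and mice on normal diet (ND, 5 libraries). All groups were C57BL/6 mice, with no genotype or drug difference named in the labels, and the sources used here do not give the ages of the mice or the makeup of the diet. Cells were freed from the liver with collagenase, hepatocytes were spun down at low speed and sorted by flow cytometry by a gate that the labels leave unnamed, and tags were sequenced from the 3′ ends of polyadenylated RNA. The labels number the libraries but do not state that each comes from its own mouse, so the p-values measure only library-to-library spread, which may be technical.

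The mitochondrial genome encodes core subunits of 4 of the complexes of oxidative phosphorylation, the chain that turns the oxidation of fuel into ATP, together with the rRNAs and tRNAs needed to translate them inside the organelle. Both of its strands are transcribed as long precursors. Cutting at the tRNAs that lie between the other genes releases the mature rRNAs and mRNAs, most of which then receive a short poly(A) tail. Hepatocytes are rich in mitochondria, which in these cells also carry out fatty acid oxidation, ketone body production and part of the urea cycle.

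Libraries held 5281143 to 10015751 counts. Of the 12 hepatocyte markers listed, 11 were in the table and their summed level was 80464 to 107266 CPM (counts per 1000000 counts of a library) in every library, with 6 of the 11 called lower in the mean of the 6 weeks. Markers of other liver cells were present too, and those of Kupffer, sinusoidal endothelial and stellate cells were higher at the later weeks. The summed Kupffer cell markers (14 genes, 14 called higher in the mean of the 6 weeks) were 2145 to 2304 CPM at week 5 and 1718 to 2089 CPM at week 6, against 112 to 639 CPM in ND. The sinusoidal endothelial markers (15 genes, 13 called higher) summed to 2254 to 2518 CPM at week 5 and 1733 to 2259 CPM at week 6, against 183 to 777 CPM in ND. The stellate cell markers (12 genes, 11 called higher) summed to 605 to 1268 CPM at week 5 and 603 to 975 CPM at week 6, against 72.0 to 163 CPM in ND, and no gene of these 3 lists was at 0 in all libraries. Their part in the mitochondrial values was not tested, and values from a fit with the mean level of these 3 lists as a term (the marker score) are given beside each member called in a week, the mean or the slope; the nuclear genes below were not fitted with it. Nuclear-retained RNAs, listed as a sign of RNA quality (4 genes, 1 called higher at week 5 and 0 at week 6 and in the mean), summed to 3480 to 5305 CPM at week 5 and 3092 to 4085 CPM at week 6, against 965 to 2625 CPM in ND. Monocyte and dendritic, lymphocyte and neutrophil markers also lay above ND at weeks 5 and 6. Cholangiocyte markers overlapped ND, with 29.1 to 61.5 CPM at week 5 and 50.0 to 59.1 CPM at week 6, against 31.6 to 54.6 CPM. So did erythroid markers, with 26.4 to 82.4 CPM at week 5 and 19.4 to 28.8 CPM at week 6, against 3.84 to 45.6 CPM. In such sorted populations, fewer transcripts per cell and a smaller share of hepatocytes cannot be told apart.

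Mitochondrial rows held 22.6% of all counts in the 25 libraries together. The rRNAs took 44.2% of the mitochondrial counts, the mRNAs 55.7% and the tRNAs 0.0617%. The most abundant member was mt-Rnr2, the rRNA of the large subunit of the mitochondrial ribosome, with 30.5% of the mitochondrial counts. It was followed by mt-Nd2 and mt-Nd4, both subunits of complex I (the NADH dehydrogenase), with 18.9% and 17.3%, and by mt-Rnr1, the rRNA of the small subunit, with 13.8%. Next came mt-Cytb (cytochrome b, of complex III) with 8.89%, mt-Nd1 with 5.67%, mt-Nd6 with 2.10%, mt-Nd5 with 1.57% and mt-Co1 (the catalytic subunit of complex IV) with 1.31%. These are shares of 3′ tags that are not divided by length.

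The other mRNAs were nearly missing from the counts, and they lie side by side. The 11 members between mt-Co1 and mt-Nd4 in the order of the mitochondrial genome had 7392 counts over 25 libraries, 0.0181% of the mitochondrial counts, and 7230 of these belonged to mt-Nd3. Over all libraries mt-Co2 had 5 counts, mt-Atp6 had 39, mt-Co3 had 2, mt-Nd4l had 1 and mt-Atp8 had 0. These encode subunits of complex IV (mt-Co2, mt-Co3), of the ATP synthase, complex V (mt-Atp6, mt-Atp8), and of complex I (mt-Nd4l). A library's floor of 3 counts was 0.300 to 0.568 CPM, so at this depth the levels of these mRNAs cannot be compared between diets.

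Most of this stretch exists a second time in the nuclear genome. In the GENCODE M21 transcripts, every 50-base window of mt-Co2 was also present in another annotated transcript, and so were 99.9% of the windows of mt-Co3, 99.5% of mt-Atp6, 98.8% of mt-Nd4l and 98.0% of mt-Nd3. The best matches were neighbouring unprocessed pseudogenes on chromosome 1. Gm28661 matched mt-Co2 over 681 bases, Gm10925 matched mt-Atp6 over 678, Gm28437 matched mt-Co3 over 783 and Gm10222 matched mt-Nd4l over 294, each with 0 substitutions, and Gm28438 matched mt-Nd3 over 345 bases with 1 substitution (T3C, counted from the start of mt-Nd3). No copy of mt-Atp8 or of a tRNA was found as an annotated transcript, and none of mt-Rnr1, mt-Nd1, mt-Nd6 or mt-Cytb. The sources used here do not say whether reads that map to several places were kept, and the part of the copies in the low counts was not tested.

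The ends of the alignments show where a tag can and cannot be told from the copy named. Identical ends are shown for mt-Co3 and Gm28437, bases 724 to 783 of mt-Co3, from the GENCODE M21 transcripts, 5′ to 3′.
mt-Co3: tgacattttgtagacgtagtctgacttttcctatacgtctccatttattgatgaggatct
Gm28437: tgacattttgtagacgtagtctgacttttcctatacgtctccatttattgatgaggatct
Where the alignment to Gm29216 starts, mt-Co1 differs from it by 6 bases (T1056A, C1057T, A1059G, A1060G, C1062A and A1066T, counted from the start of mt-Co1), all within the first bases of the alignment, and the last 300 bases of mt-Co1 are shared in full. This start is not the edge of the shared sequence. Gm29216 aligns to 492 bases, but 765 of the 1496 windows of mt-Co1 were present in 3 annotated copies. Shared windows therefore also lie upstream of base 1054, in copies other than Gm29216. Capitals mark the differing bases in mt-Co1 bases 1054 to 1113.
mt-Co1: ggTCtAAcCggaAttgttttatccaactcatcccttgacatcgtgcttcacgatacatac
Gm29216: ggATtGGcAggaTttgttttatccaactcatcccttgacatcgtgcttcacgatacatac
At the downstream edge mt-Nd4 is identical to Gm28439 over its first 876 bases, and its last 502 bases lie outside the copy. The 3′ end, where a 3′ tag would fall, is shown as bases 1319 to 1378 of mt-Nd4.
mt-Nd4: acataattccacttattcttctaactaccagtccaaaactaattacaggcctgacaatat
Summed over libraries, mt-Nd4 had 7059880 counts and Gm28439 had 1269. The pseudogene Gm28437 had 3222 counts, more than the 2 counts of mt-Co3, and Gm28661 had 300, more than the 5 counts of mt-Co2. The 7 copies on chromosome 1 together had 5637 counts. In contrast mt-Co1, whose 3′ end is shared in full, had 534326 counts, and Gm29216 had 129.

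**Figure D1:**
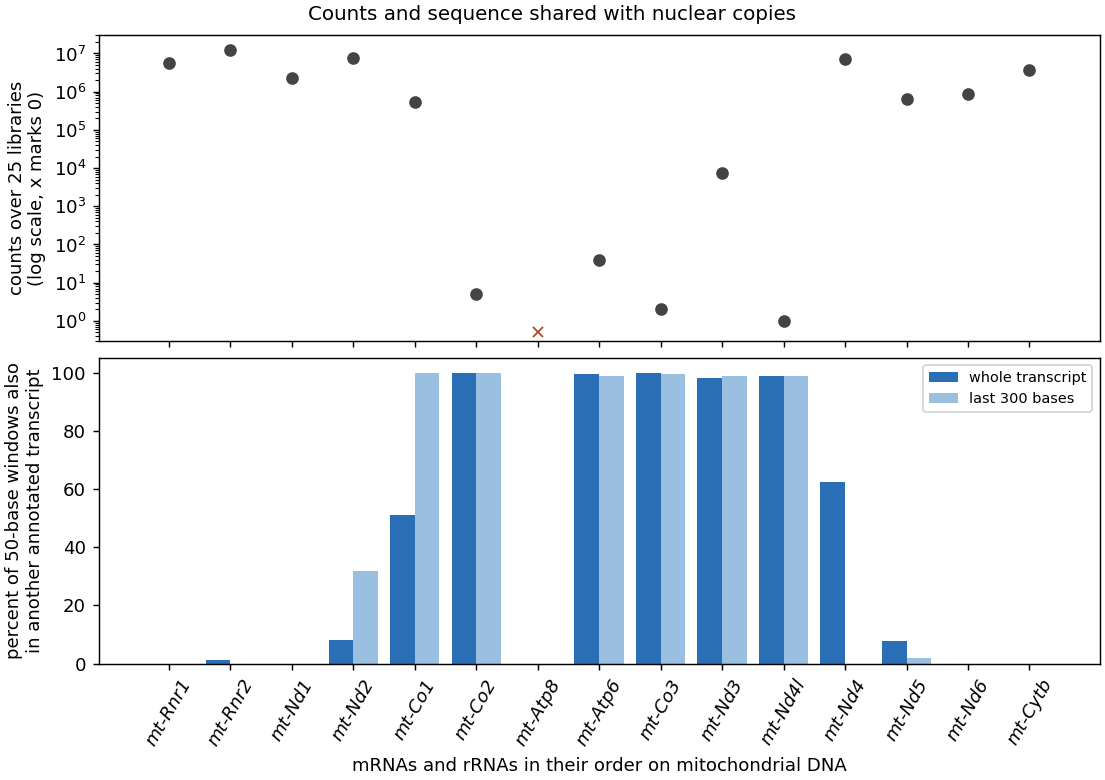
Counts summed over 25 libraries (top, log scale) and the percent of 50-base windows also present in another annotated transcript (bottom, whole transcript and last 300 bases) for the 15 mRNAs and rRNAs in their order on mitochondrial DNA. The near-empty members between mt-Co1 and mt-Nd4 are those with the highest shared percent, apart from mt-Atp8, which had 0 counts and no shared window, and mt-Nd3, which kept 7230 counts.

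The first comparison asks whether the mitochondrial share of hepatocyte RNA differs with the diet. As a percent of library counts it did not differ beyond the spread between libraries. On ND the share was 21.7, 19.3, 23.5, 23.8 and 27.4% of counts. Week 1 libraries had 22.5, 21.9, 19.9 and 20.8%, week 2 libraries 24.2, 22.9 and 21.4% and week 3 libraries 22.9, 23.1, 23.2 and 23.2%. Week 4 libraries had 21.3, 21.7 and 27.1%, week 5 libraries 23.1, 22.1 and 22.0% and week 6 libraries 21.6, 20.7 and 23.8%. Every week overlapped ND. The share averaged 22.5 ± 1.54% in NASH libraries and 23.1 ± 3.00% in ND libraries (SD, n = 20 and 5). The difference was -0.656 percentage points (exact permutation test, two-sided, p = 0.499, Benjamini-Hochberg adjusted p = 0.800). Over the alternatives, which include other scalings, it ran from -3.64 to 0.419 percentage points (smallest exact permutation adjusted p = 0.220). Leaving out single libraries gave -1.62 to 0.419. The alternatives ran from -6.05 to 0.354 at week 5 and from -5.90 to -0.00438 at week 6. The size of the difference thus depends on the processing, and none passed. The 95% Wilson interval of a library's share reached at most 0.0381 percentage points to either side, covering counting error only, since tags without molecular identifiers are not independent molecules.

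Within that share neither the rRNA part nor the mRNA part passed the test at any week. The rRNA share of mitochondrial counts was 49.1, 46.2, 43.6, 42.4 and 60.6% on ND. Week 4 libraries had 35.0, 32.0 and 49.7%, week 5 libraries 43.2, 35.6 and 34.9% and week 6 libraries 36.6, 37.8 and 51.4%. At each of these weeks 2 libraries lay below all ND libraries and 1 lay among them. The mean was 37.9 ± 4.56% at week 5 and 48.4 ± 7.32% in ND (SD, n = 3 and 5), a difference of -10.5 percentage points (exact permutation test, p = 0.0714, adjusted p = 0.364). With 3 against 5 libraries, the smallest p that the exact permutation test can give is 0.0179. Mitochondrial mRNAs held 14.0 ± 0.589% of counts at week 4 and 11.8 ± 1.53% in ND (SD, n = 3 and 5, exact permutation p = 0.0536, adjusted p = 0.364). None of the 56 tests (8 summed values in 7 comparisons) had an adjusted p under 0.05, the smallest being 0.275, and 6 had an unadjusted p under 0.05.

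**Figure D2:**
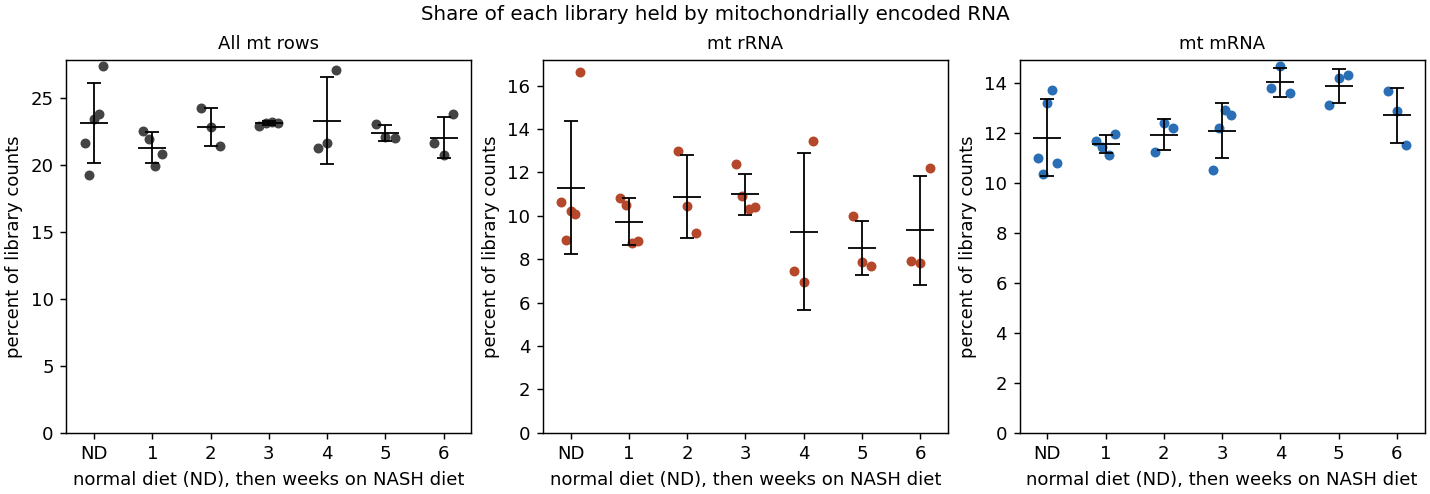
Percent of library counts in all mt rows (left), mt rRNA (middle) and mt mRNA (right) for ND and for weeks 1 to 6 on the NASH diet. Each point is a library and the bars are mean ± SD. The total stays between 19.3% and 27.4% in all libraries, and an ND library stands apart in rRNA at 16.6%.

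These 6 were in 3 of the summed values: the complex I share, the complex IV share and the ratio to nuclear subunits. Complex I mRNAs made up 79.0 ± 2.80% of mitochondrial mRNA counts at week 4, 79.7 ± 0.381% at week 5 and 82.6 ± 0.911% in ND (SD, n = 3, 3 and 5), and at both weeks all libraries lay below all ND libraries (exact permutation p = 0.0179, adjusted p = 0.275 for each). At week 6 the same share was 82.3 ± 2.86%. These shares are parts of a whole, so a lower share need not mean lower complex I mRNA. With library size only, mt-Nd1, mt-Nd2, mt-Nd4, mt-Nd5 and mt-Nd6 had edgeR log2 fold changes of 0.01 to 0.36 at week 4, and mt-Cytb had 0.57. At week 5 these values were 0.09 to 0.25 and 0.51. With TMM factors they were -0.15 to 0.20 and 0.40 at week 4, and -0.24 to -0.08 and 0.17 at week 5. Complex IV, in effect mt-Co1 alone, made up 2.30 ± 0.190% in NASH libraries and 2.57 ± 0.256% in ND libraries (SD, n = 20 and 5, exact permutation p = 0.0144, adjusted p = 0.275), and at week 3 all libraries lay below all ND libraries, at 2.27 ± 0.117% (SD, n = 4, exact permutation p = 0.0317, adjusted p = 0.333). The ratio of mitochondrial mRNA counts to the counts of nuclear genes for oxidative phosphorylation subunits was 7.43 ± 0.637 in NASH libraries and 6.59 ± 0.836 in ND libraries (SD, n = 20 and 5, exact permutation p = 0.0196, adjusted p = 0.275), and 8.03 ± 0.341 at week 5 (SD, n = 3, exact permutation p = 0.0357, adjusted p = 0.333). The ratio of mt-Rnr2 to mt-Rnr1 counts, whose transcripts come from a shared precursor, was 2.20 ± 0.149 in NASH libraries and 2.26 ± 0.147 in ND libraries (SD, n = 20 and 5, exact permutation p = 0.434, adjusted p = 0.781).

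The second comparison took each member on its own, with edgeR's quasi-likelihood test on the counts, Benjamini-Hochberg adjustment over all 11869 genes tested and a call at an adjusted p under 0.05. Of the 37 members, 20 passed the filter on low counts: 8 mRNAs, 2 rRNAs and 10 tRNAs. The 17 that did not include 8 at 0 in every library (mt-Atp8 and 7 tRNAs). No member was called at week 1, 2 or 3. Of all genes tested, 1.20% were called at week 1 (0.219% higher, 0.977% lower), 0.885% at week 2 (0.227% higher, 0.657% lower) and 0.851% at week 3 (0.244% higher, 0.607% lower). At these weeks 1, 1 and 5 members had an unadjusted p under 0.05, and DESeq2 in place of edgeR called 1, 0 and 1. At week 4, 1 of 20 was called, higher, against 8.28% of all genes (5.43% higher, 2.86% lower). At week 5, 4 of 20 were called, 1 higher and 3 lower, against 35.4% (19.1% higher, 16.3% lower). With library size only as the scaling the 4 called were 3 higher and 1 lower. The share of all genes called under that scaling is not given here. Its median log2 fold change over all genes was 0.28 at week 5, beside -0.05 with TMM, so the shift toward higher is shared by all genes. At week 6, 2 of 20 were called, 1 higher and 1 lower, against 26.8% (16.3% higher, 10.5% lower). In the mean of the 6 weeks 2 of 20 were called, 1 higher and 1 lower, against 20.0% (11.1% higher, 8.87% lower). In each of these 4 comparisons the share of members called was below that of all genes tested. The median log2 fold change of the members in that mean was -0.12, beside -0.02 over all genes tested. All these comparisons share the ND libraries.

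The member that rose was mt-Tp, the proline tRNA, encoded on the minus strand as the last of the 37 genes in the annotated order. Its annotated sequence is 67 bases long in GENCODE M21 and holds no run of A longer than 2 bases, shown because it is the only member called higher against ND in the fit with TMM factors.
mt-Tp: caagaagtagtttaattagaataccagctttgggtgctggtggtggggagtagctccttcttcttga
On ND it had 65.3, 42.4, 49.1, 58.1 and 64.2 CPM. It had 70.5, 82.3, 47.7 and 58.5 CPM at week 1 and 97.2, 78.4 and 59.9 CPM at week 2. It had 97.5, 101.8, 87.3 and 74.7 CPM at week 3 and 95.8, 104.7 and 88.6 CPM at week 4. It had 117.0, 94.3 and 92.5 CPM at week 5 and 112.3, 132.7 and 87.1 CPM at week 6. From week 3 on, every library lay above the highest ND library, and 17 of the 20 NASH libraries did so. Libraries did not overlap with ND for 5.43%, 7.14%, 5.46%, 13.6%, 38.7% and 28.1% of all genes tested at weeks 1 to 6 in order. All week 6 libraries also lay above all week 1 libraries, a separation found in 24.4% of all genes, but with TMM factors in the CPM these 2 groups overlapped, while weeks 3 to 6 still lay above ND.

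In the mean of the 6 weeks the log2 fold change of mt-Tp was 0.48 (SE 0.13, edgeR adjusted p = 0.00967). It was 0.09 at week 1 (adjusted p = 0.911), 0.38 at week 2 (adjusted p = 0.390) and 0.59 at week 3 (adjusted p = 0.0891). It was called higher at week 4 (0.62, adjusted p = 0.0313), week 5 (0.52, adjusted p = 0.0234) and week 6 (0.68, SE 0.18, adjusted p = 0.00517). Between diet weeks, without ND, mt-Tp was higher at week 6 than at week 1 by 0.59 (SE 0.19, adjusted p = 0.0303; 16.5% of all genes called), and its slope over weeks 1 to 6 was 0.10 per week (SE 0.03, adjusted p = 0.0208; 33.9% of all genes called). The week 6 call was lost without week 6 library 2 (0.52, adjusted p = 0.0533), the week 5 call without ND library 2 or week 5 library 1 (0.43 and 0.38, adjusted p = 0.0640 and 0.167), and the week 4 call without ND library 2 or 3 or any week 4 library (0.53 to 0.67, adjusted p = 0.0534 to 0.15). The call between weeks 6 and 1 was lost without week 1 library 3 or 4 or week 6 library 1 or 2 (0.42 to 0.61, adjusted p = 0.0711 to 0.169). The slope call was lost without week 1 library 3, week 5 library 1 or week 6 library 2 (0.07 to 0.09 per week, adjusted p = 0.0528, 0.0516 and 0.0977). In the mean of the weeks the call held without any single library (0.39 to 0.57). With the marker score as a term no call of mt-Tp remained, with fold changes of 0.75 in the mean (adjusted p = 0.0858), 0.90 at week 4 (0.0995), 0.98 at week 5 (0.403), 1.09 at week 6 (0.152) and 0.88 between weeks 6 and 1 (0.260) and a slope of 0.17 (0.248). The rise cannot be assigned to mature tRNA, since the libraries hold polyadenylated RNA. Whether the counting used strand is not stated, so tags from RNA of the opposite strand at this gene cannot be told apart.

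**Figure D3:**
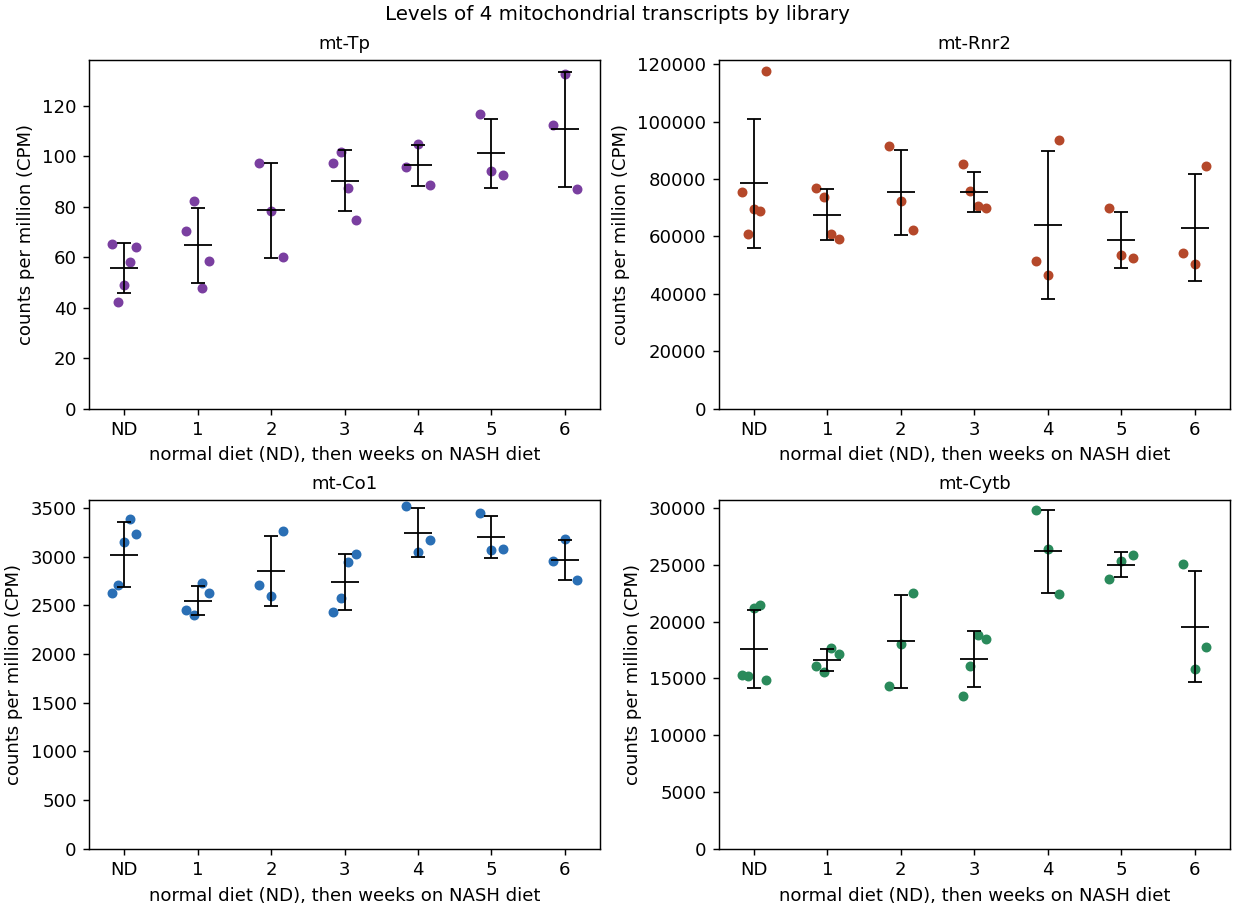
CPM of mt-Tp, mt-Rnr2, mt-Co1 and mt-Cytb for ND and for weeks 1 to 6 on the NASH diet; each point is a library and the bars are mean ± SD. All mt-Tp points from week 3 on lie above the highest ND point of 65.3 CPM, while mt-Rnr2 overlaps between ND and every week.

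Both rRNAs were called lower at week 5 only. The log2 fold change was -0.72 for mt-Rnr1 (SE 0.21, edgeR adjusted p = 0.00881) and -0.77 for mt-Rnr2 (SE 0.25, adjusted p = 0.0180). In CPM without composition factors, mt-Rnr2 was 69859, 53442 and 52486 at week 5 and 75405, 60842, 69615, 68998 and 117460 in ND. These overlap, although with TMM factors in the CPM both rRNAs lay below all ND libraries, and with library size as the scaling the fold changes were -0.38 (adjusted p = 0.117) for mt-Rnr1 and -0.42 (adjusted p = 0.158) for mt-Rnr2. The TMM composition factors averaged 1.14 at week 5 and 0.905 in ND, and the median of all genes moved to 0.28 at week 5 with library size only, beside -0.05 with TMM. ND library 5 holds the highest rRNA level, and without it the fold change of mt-Rnr2 was -0.51 (adjusted p = 0.0853); the call was also lost without week 5 library 2 or 3 (-0.70, adjusted p = 0.0801 and 0.0769). Without ND libraries 1 and 5, which have the lowest marker scores, neither rRNA was called (mt-Rnr1 -0.54, adjusted p = 0.0529; mt-Rnr2 -0.50, adjusted p = 0.120). With the marker score as a term the fold changes were 0.09 for mt-Rnr1 (adjusted p = 0.967) and 0.12 for mt-Rnr2 (adjusted p = 0.962). At week 6 the values were -0.50 for mt-Rnr1 (adjusted p = 0.0750) and -0.62 for mt-Rnr2 (adjusted p = 0.0616).

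Of the 8 mRNAs tested, 7 were called in no comparison with TMM factors. The exception was mt-Co1, called lower at week 6 (log2 fold change -0.33, SE 0.12, adjusted p = 0.0459) and in the mean of the weeks (-0.24, SE 0.08, edgeR adjusted p = 0.0393). The CPM of mt-Co1 was 2958, 3179 and 2761 at week 6 and 2630, 2703, 3154, 3385 and 3235 in ND, so the libraries overlapped. With library size only, its fold change in the mean of the weeks was -0.05 (adjusted p = 0.674), and the call was also lost without ND library 3, 4 or 5 or week 6 library 3 (-0.23 to -0.18). The slope of mt-Co1 over weeks 1 to 6 was called positive with library size only (0.05 per week, edgeR adjusted p = 0.0445), beside a median of 0.04 over all genes. With TMM factors it was 0.004 per week (adjusted p = 0.911), so its course over the diet depends on the scaling. With the marker score as a term the fold changes were -0.29 at week 6 (adjusted p = 0.685) and -0.22 in the mean (adjusted p = 0.595). Since the 3′ end of mt-Co1 lies inside the chromosome 1 copy, its level is uncertain.

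For mt-Cytb the call at weeks 4 and 5 depended on the scaling. It had 29796, 26363 and 22437 CPM at week 4 and 23763, 25376 and 25913 CPM at week 5, against 15270, 15209, 21227, 21506 and 14877 CPM in ND. In these CPM, without TMM factors, both weeks lay above all ND libraries, and with library size only mt-Cytb was called higher (log2 fold changes 0.57 and 0.51, adjusted p = 0.0264 and 0.0172). With TMM factors both weeks overlapped ND and were not called (0.40, SE 0.17, adjusted p = 0.137 at week 4 and 0.17, adjusted p = 0.468 at week 5). At week 6 the levels ran from 15827 to 25071 CPM. The 5 complex I mRNAs mt-Nd1, mt-Nd2, mt-Nd4, mt-Nd5 and mt-Nd6 had log2 fold changes of -0.35 to 0.20 over the 6 weeks, with no call. The mRNA mt-Nd6, of the minus strand, had 4628 ± 1061 CPM at week 6 and 4354 ± 719 CPM in ND (SD, n = 3 and 5). The spread between libraries limits these values: the biological coefficient of variation was 0.127 to 0.171 for the 7 mRNAs other than mt-Nd3, beside a median of 0.179 over all genes tested, and 0.202 and 0.233 for mt-Rnr1 and mt-Rnr2.

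The low member mt-Nd3 varied most among the mRNAs, with a coefficient of 0.577. It ranged from 7.39 to 88.0 CPM and was 48.2 to 81.4 CPM at week 4, 52.7 to 64.6 CPM at week 5 and 12.0 to 42.8 CPM in ND, without a call at either week (log2 fold changes 0.82 and 0.56, adjusted p = 0.439 and 0.505). Libraries low in mt-Nd3 were often high in mt-Tm, the methionine tRNA. Week 3 library 1 had 7.39 CPM of mt-Nd3 and 43.8 CPM of mt-Tm, while week 5 library 3 had 62.4 and 8.31 CPM. Replicates of a single group differed in the same way: ND library 1 had 12.0 CPM of mt-Nd3 and 27.4 CPM of mt-Tm, and ND library 2 had 36.3 and 9.03 CPM.

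**Figure D4:**
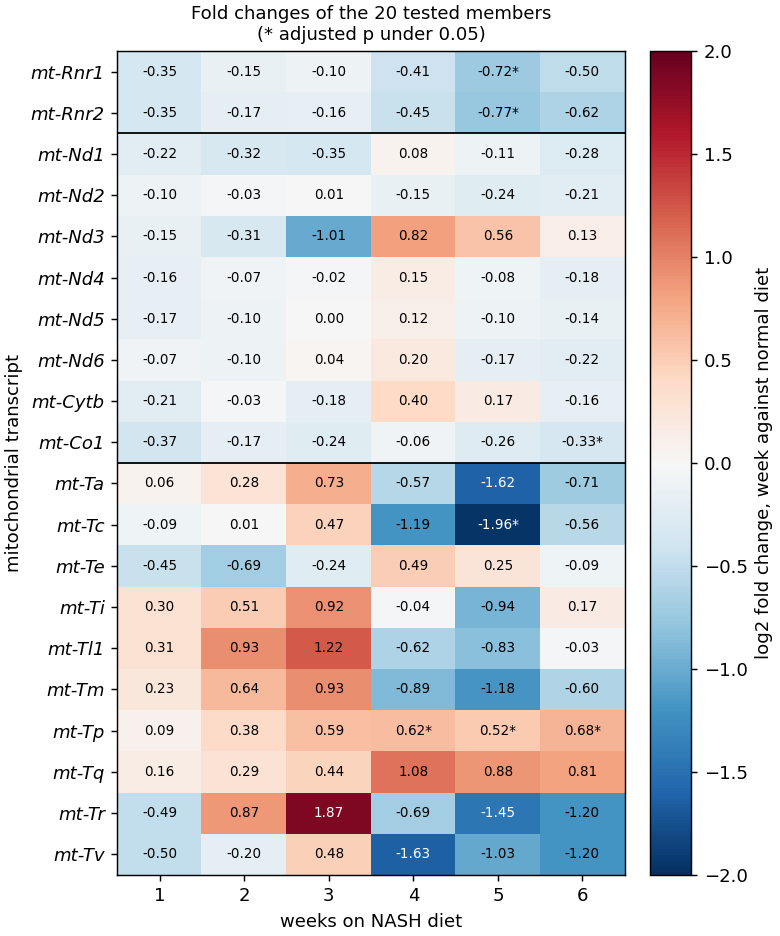
Log2 fold changes of the 20 tested members (rows: rRNAs, mRNAs, tRNAs) at each week on the NASH diet against ND (columns), from the edgeR fit, with asterisks at an adjusted p under 0.05. The 7 asterisks fall on mt-Tp at weeks 4, 5 and 6, mt-Rnr1, mt-Rnr2 and mt-Tc at week 5, and mt-Co1 at week 6.

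The tRNAs other than mt-Tp were sparse and variable. Tested members averaged 0.673 CPM (mt-Tr) to 17.3 CPM (mt-Tm) over all libraries, and their biological coefficients of variation were 0.243 to 0.550, against 0.177 for mt-Tp. The cysteine tRNA mt-Tc was called lower at week 5, with 1.64, 0.413 and 0.817 CPM, against 4.68, 0.967, 1.5, 3.63 and 4.92 CPM in ND (log2 fold change -1.96, SE 0.64, adjusted p = 0.0191). These overlap, and in the limma voom fit the adjusted p was 0.0992. The call was lost without ND library 5 or week 5 library 2 or 3 (-1.86 to -1.63, adjusted p = 0.0550 to 0.0949), without ND libraries 1 and 5 together (-1.37, adjusted p = 0.147) and with the marker score as a term (-0.42, adjusted p = 0.949). The slope over weeks 1 to 6 was negative for the alanine tRNA mt-Ta (-0.31 per week, adjusted p = 0.0429), for mt-Tc (-0.28, adjusted p = 0.0393) and for mt-Tm (-0.33, adjusted p = 0.0212), and positive for the glutamate tRNA mt-Te (0.15, adjusted p = 0.0441). Leaving out single libraries kept 15, 15, 21 and 12 of 25 of these calls for mt-Ta, mt-Tc, mt-Tm and mt-Te, each in the same direction. With the marker score as a term these slopes were -0.08 for mt-Ta, -0.05 for mt-Tc, -0.12 for mt-Tm and 0.19 for mt-Te, with adjusted p from 0.549 to 0.953. In all, 5 of 20 members had a slope called, mt-Tp among them, 2 positive and 3 negative, against 33.9% of all genes tested (18.9% positive, 14.9% negative). With library size only the 5 were 4 positive and 1 negative. The share of all genes called under that scaling is not given here, and the median slope of all genes was 0.04 per week, beside -0.01 with TMM. In the test of any difference among the 7 groups, 2 of 20 members were called, mt-Tp (adjusted p = 0.0127) and mt-Tr (adjusted p = 0.00966), against 29.9% of all genes.

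The arginine tRNA mt-Tr had its highest means at weeks 2 and 3. The ND mean was 0.458 ± 0.359 CPM, and the means over the weeks were 0.364 ± 0.298 (week 1), 0.983 ± 0.602 (week 2), 1.95 ± 1.07 (week 3), 0.316 ± 0.253 (week 4), 0.200 ± 0.176 (week 5) and 0.256 ± 0.199 CPM (week 6), with SD over 5, 4, 3, 4, 3, 3 and 3 libraries. No library had more than 17 counts, and no single week was called against ND. It had 1.63 CPM in week 2 library 1 and 2.57, 2.62 and 2.25 CPM in week 3 libraries 1, 2 and 3. The highest level in any other library was 1.00 CPM. The member passed the filter on low counts only through these high libraries. Its call among the 7 groups therefore rests on the libraries that let it pass and is no separate support for a difference. The gene lies in the sparse stretch between mt-Nd3 and mt-Nd4l, and its 68 bases, from GENCODE M21, hold a run of 8 A, in capitals, the longest among the tRNAs. It is printed because the kit primes with oligo(dT), which pairs with A.
mt-Tr: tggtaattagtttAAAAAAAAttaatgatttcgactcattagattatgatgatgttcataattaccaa
The part of that run in the counts was not tested. The glutamine tRNA mt-Tq had 24.1 ± 3.78 CPM at week 4, 23.8 ± 0.562 CPM at week 5 and 10.3 ± 5.38 CPM in ND (SD, n = 3, 3 and 5), with log2 fold changes of 1.08 and 0.88 that were not called (adjusted p = 0.137 and 0.134), while with library size only, the scaling of these CPM, mt-Tq was called higher at week 5 (1.23, adjusted p = 0.0369).

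The third comparison set the nuclear genes that keep up, transcribe, process and translate mitochondrial RNA beside the members. Of 79 listed, 74 were tested. In the mean of the weeks 0 were called higher and 5 lower, with a median log2 fold change of -0.14. Of all genes tested, 20.0% were called (11.1% higher, 8.87% lower), so lower calls were not more frequent among these genes. At week 5, 21 were called lower and at week 6, 12, with 0 higher at either, against 16.3% and 10.5% of all genes called lower. The mitochondrial RNA polymerase Polrmt had a log2 fold change of -0.17 in that mean (edgeR adjusted p = 0.349) and -0.56 at week 5 (adjusted p = 0.0154). In CPM, without TMM factors, Polrmt was 8.22 ± 0.636 at week 5, against 9.62 ± 1.37 in ND (SD, n = 3 and 5). Tfam, which packages mitochondrial DNA and starts its transcription, was at -0.22 in that mean (adjusted p = 0.0851) and fell by 0.36 at week 5 (adjusted p = 0.0368) and by 0.40 at week 6 (adjusted p = 0.0262). In CPM, without TMM factors, Tfam was 37.8 ± 4.94 at week 5 and 36.0 ± 7.14 at week 6, against 38.5 ± 4.62 in ND (SD, n = 3, 3 and 5), so the groups lay within each other's spread on that scale. Lrpprc, which stabilises mitochondrial mRNAs, was at -0.22 in that mean (adjusted p = 0.104) and fell by 0.58 at weeks 5 and 6 (adjusted p = 0.00254 and 0.00356). In CPM, without TMM factors, Lrpprc averaged 263, 267, 300, 229, 211 and 205 at weeks 1 to 6 in order, against 250 in ND. Ppargc1a, a coactivator of mitochondrial biogenesis, fell by 0.64 in that mean (SE 0.16, adjusted p = 0.00694), with 17.7 ± 5.28 CPM in ND, 11.3 ± 3.01 (week 1), 17.2 ± 7.45 (week 2), 14.5 ± 3.21 (week 3), 13.8 ± 1.72 (week 4), 10.6 ± 1.63 (week 5) and 11.5 ± 0.399 CPM (week 6), SD over 5, 4, 3, 4, 3, 3 and 3 libraries, so that week 2 was close to ND. It was the only call among 8 biogenesis regulators, where the related coactivator Pprc1 was at 0.40 (adjusted p = 0.335) and the transcription factor Nrf1 at 0.18 (adjusted p = 0.414).

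Among 21 RNA processing and decay factors 2 fell in the mean of the weeks, Tbrg4 (-0.30, edgeR adjusted p = 0.0319) and Fastkd5 (-0.42, adjusted p = 0.0455), both of the FASTK family of mitochondrial RNA-binding proteins, and Rexo2, a mitochondrial exonuclease of short RNAs, did not pass (-0.24, adjusted p = 0.0532). Among 12 translation factors 2 were called lower with TMM factors. These were Gfm2 (-0.31, adjusted p = 0.0368), used in ribosome recycling, and Mtif2 (-0.25, adjusted p = 0.0396), an initiation factor. The insertase Oxa1l did not pass (-0.24, adjusted p = 0.0610). On the same CPM scale weeks 1 to 6 averaged 21.5, 23.1, 20.4, 21.1, 19.0 and 21.6 for Gfm2, against 23.0 in ND. For Mtif2 they averaged 41.3, 40.0, 42.5, 37.5, 31.8 and 34.7, against 39.4 in ND. No call was made in that mean among 11 replication and upkeep genes, 8 transcription genes and 15 rRNA and tRNA modification genes, whose smallest adjusted p-values were those of the protease Lonp1 (0.0597), Tfam (0.0851) and the tRNA-modifying Mto1 (0.129). Others among them were the helicase Twnk (-0.32, adjusted p = 0.154), the polymerase subunit Polg2 (-0.52, adjusted p = 0.177), Mterf4, which acts in ribosome assembly (-0.17, adjusted p = 0.340), the pseudouridine synthase Trub2 (-0.31, adjusted p = 0.162) and the methyltransferase Nsun3 (-0.28, adjusted p = 0.163). With library size only, the list medians at week 5 were 0.38 for replication and upkeep, 0.09 for transcription, 0.02 for processing and decay, -0.06 for modification, -0.07 for translation factors and 0.28 for biogenesis regulators. With TMM the week 5 medians were -0.32 for processing and decay and -0.24 for transcription, so the sign of both depends on the composition factors.

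Nuclear subunits of oxidative phosphorylation, the partners of the 13 proteins, gave 42 calls lower and 0 higher among 75 tested in the mean of the weeks (median log2 fold change -0.27, against -0.02 over all genes), with 54 lower at week 5 and 47 at week 6, where 16.3% and 10.5% of all genes were called lower. Complex I had 22 of 36 lower, complex II 2 of 4, complex III 4 of 9, complex IV 5 of 11 and complex V 9 of 15. Examples were Sdha of complex II (-0.24, adjusted p = 0.0207), Ndufb10 of complex I (-0.32, edgeR adjusted p = 0.00159), Uqcrh of complex III (-0.40, adjusted p = 0.000142), Cox7b of complex IV (-0.36, adjusted p = 0.00164) and Atp5o of complex V (-0.36, adjusted p = 0.00105). Over the same libraries, the 8 tested mitochondrial mRNAs had a median of -0.06. The difference between these medians was not tested. The ratio of the summed counts of both kinds, given above, was 7.43 in NASH libraries and 6.59 in ND libraries and did not pass (exact permutation adjusted p = 0.275). The nuclear-retained RNAs and the Kupffer, endothelial and stellate cell markers were higher in the same weeks, in the sums given above. Their part in these calls was not tested. With library size only, the medians of the nuclear complexes at week 5 were between -0.10 and 0.00. In CPM without TMM factors the examples differed in size of fall (week 5 against ND, SD, n = 3 and 5). Sdha had 255 ± 6.85 and 270 ± 19.8, within the ND spread. Uqcrh had 344 ± 10.7 and 410 ± 19.0, Ndufb10 113 ± 8.67 and 127 ± 4.62, Cox7b 268 ± 20.6 and 300 ± 11.5, and Atp5o 251 ± 6.24 and 294 ± 18.2.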

How the data were processed

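Tags were sequenced from the 3′ ends of polyadenylated RNA of sorted hepatocytes with the QuantSeq 3′ FWD kit, per the labels' protocols. The authors deposited a table of raw counts by gene symbol. FastQC, cutadapt, STAR 2.7.1a and GRCm39, a mouse build, come from the submitters' processing notes. The counting tool, its strand setting and its handling of reads that map to several places: not given in the sources used here. Totals were 5281143 to 10015751 counts in 25 libraries.

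The deposited counts were fitted with edgeR 4.0.16 in R 4.3.3, with robust quasi-likelihood F-tests, TMM factors and 7 groups in 1 model (18 residual degrees of freedom). The edgeR filter by group left 11869 of 37085 symbols. Contrasts gave each week against ND, the mean of the 6 weeks against ND, week 6 against week 1, the slope per week over weeks 1 to 6 and any difference among groups. P-values were adjusted by Benjamini-Hochberg over all genes tested within a comparison. A standard error is the absolute log2 fold change divided by the root of F. The CPM values are counts over the library total, without TMM factors. The 8 summed values were compared by two-sided exact permutation tests of the difference of means over libraries, adjusted over 56 tests.

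The fit was tested on simulated data for week 6 against ND: of 197 genes changed 2-fold among 11572, 50.8% were recovered and 7 other genes were called. The changes were drawn up and down in equal numbers and in week 6 only. The simulation therefore lacks the shift in composition of the real libraries, whose TMM factors averaged 0.905 in ND and 1.12 at week 6. It does not test calls that depend on these factors. Within groups, no pair of libraries was a copy of another (chi-squared over degrees of freedom 5.77 to 35.1 over 34 pairs). Same-numbered libraries of different groups did not deviate together (median correlation -0.00500, 14 of 66 pairs over 0.1), so the numbers were not used to pair them.

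Sequences, order and strand of the members come from GENCODE M21, which is built on another assembly than the counts, so no coordinates are given. Windows of 50 bases of each member were searched as identical runs in all other annotated transcripts. The text gives all mRNAs and rRNAs and each tRNA called by value, the other tRNAs by range, and from each nuclear list up to 3 genes with the smallest p in the mean of the weeks, besides Polrmt, Tfam, Lrpprc and Ppargc1a. The members, lists and tests were chosen with earlier results of these data known. Alternatives were other scalings and filters, DESeq2 1.42.0, limma 3.58.1 (voom), only the groups compared, a replicate block, a score of Kupffer, endothelial and stellate markers as a term, and leaving out libraries.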

Additional observations from a re-analysis of the deposited data

Results flagged for a closer look

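ND library 5 stood apart from the other ND libraries in mitochondrial rRNA, by a gap test within the group that flags about 1 group in 20 by chance. It held 16.6% of its counts in mitochondrial rRNA, against 8.90 to 10.6% in the other 4. Both rRNAs took part, mt-Rnr1 with 48844 CPM against 28154 to 32613 CPM and mt-Rnr2 with 117460 CPM against 60842 to 75405 CPM, and so did mt-Tq with 19.7 CPM against 6.61 to 9.69 CPM. ND library 1 stood apart in mt-Ta, with 5.34 CPM against 1.75 to 2.27 CPM. Week 3 library 4 stood apart in mt-Tr, with 0.369 CPM against 2.25 to 2.62 CPM in the other 3. These were 6 flags in 84 groups of values tested. The gap test was not run on groups of 3 libraries, so weeks 2, 4, 5 and 6 could not be flagged. In those groups, week 4 library 3 held 13.4% of its counts in mitochondrial rRNA, against 7.45 and 6.93% in libraries 1 and 2. Week 6 library 3 held 12.2%, against 7.92 and 7.84% in libraries 1 and 2.

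The change of mt-Tp differed between weeks of diet: its level was higher at week 6 than at week 1 by a log2 fold change of 0.59 (edgeR adjusted p = 0.0303), in a test of the difference itself. Leaving out a library gave 0.42 to 0.74, and the call was lost without week 1 library 3 or 4 or week 6 library 1 or 2 (adjusted p = 0.0711 to 0.169).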

How the results depend on the processing

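The rise of mt-Tp in the mean of the weeks kept its direction and its call in 34 of 35 alternatives, with log2 fold changes of 0.39 to 0.75. The exception was the marker score as a term (0.75, adjusted p = 0.0858), a fit in which no member was called in any comparison except 1 at week 3. Its counts were 1 at week 3 and 0 at week 4, week 5, week 6, in the mean of the weeks, for week 6 against week 1, for the slope and for any group, and the week 5 fold changes of mt-Rnr1 (0.0879) and mt-Rnr2 (0.118) were above 0; the cause was not tested.

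Counts of members called moved by over 1.5 times as follows, and the share of all genes called under each alternative is not given here. With library size only, 1 was called at week 3, 2 at week 4, 1 at week 6, 1 in the mean and 4 for any group; week 5 kept 4 calls, but 3 higher and 1 lower in place of 1 higher and 3 lower. DESeq2 size factors gave 1 at week 6 and 1 in the mean, and scaling on nuclear genes gave 1 at week 6. With no filter, the counts were 1 in the mean, 0 for week 6 against week 1, 2 for the slope and 4 for any group. With at least 5 CPM in 3 libraries they were 1 at week 6, 1 in the mean, 3 for the slope and 1 for any group. DESeq2 gave 1 at week 1, 1 at week 3 and 9 for any group, and limma voom gave 1 for the slope and 1 for any group. With only the groups compared, 0 were called at week 4, 1 at week 6 and 0 for week 6 against week 1; the mean of the weeks and the any-group test use all groups already. Without ND libraries 1 and 5, 2 were called at week 5, both higher, with the 3 lower calls lost (mt-Rnr1, mt-Rnr2 and mt-Tc), and 1 each at week 6 and in the mean, both times higher.

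The replicate numbers as a block gave 1 call at week 6, 1 in the mean and 5 for any group, and moved no other count by over 1.5 times. Under this block mt-Co1 lost its calls (log2 fold change -0.23 at week 6 and -0.16 in the mean), as did mt-Rnr2 and mt-Tc at week 5 and mt-Tc and mt-Te in the slope. The numbers did not pair the libraries.

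Leaving out each library in turn gave 0 to 2 members called at week 4 (without week 4 library 3 both calls were lower, where all libraries gave 1 higher), 2 to 5 at week 5 (0 higher and 5 lower without week 5 library 1, 2 higher and 1 lower without ND library 5), 1 to 4 at week 6, 1 to 4 in the mean, 0 to 1 for week 6 against week 1, 1 to 6 for the slope and 2 to 7 for any group. The call of mt-Co1 at week 6 was lost in 18 of 36 alternatives and that of mt-Rnr2 at week 5 in 8 of 36. No summed value passed the test under any alternative, where the smallest adjusted p was 0.220. The directions of these differences were less stable: 78 of 1554 alternative values changed sign, in 27 of the 56 differences. For the mitochondrial mRNA share at week 5 against ND the alternatives ran from -0.938 to 3.20 percentage points. Depth limits the sparse tRNAs and the mRNAs near 0 counts.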
